A study of Mus musculus with 24 samples.

Results

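The genes described here are 50 members of the ribosome biogenesis machinery of mouse T cells: subunits of RNA polymerase I and the nucleolar factors that process its transcript and assemble it into the small and the large ribosomal subunit. They were taken by name, through all probes whose gene name on the array was one of the 50 symbols or an older symbol of the same gene. The list was drawn up with earlier results of these data known, so counts over it are descriptions. All 50 had a probe on the array, 18 of them under an older symbol, and all 50 passed the filter on dim probes, among 16484 genes tested. The members fall into 6 classes by role: 4 subunits of RNA polymerase I, 17 small subunit processome and pre-40S factors, 4 core proteins of the H/ACA small nucleolar ribonucleoprotein (snoRNP), 4 proteins of the C/D snoRNP and its assembly, 15 large subunit (pre-60S) factors, and 6 multifunctional nucleolar proteins with spermidine synthase.

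The study measured RNA from CD4+ T cells of female C57BL/6 mice aged 6 or 7 weeks on 24 single-colour arrays, in 6 groups of 4. Wild-type mice (WT) were compared with mice carrying a conditional deletion of Trim28 in T cells (CKO). Trim28 encodes a co-repressor that zinc finger proteins recruit to chromatin. The labels give neither the Cre driver nor a mutated allele other than Trim28. Naive T cells were sorted as CD4+CD62+CD25- and measured unstimulated or after 13 h on plate-coated anti-CD3 and anti-CD28 antibodies, and regulatory T cells (Treg) were sorted as CD4+CD62+CD25+. The treatment label of the CKO Treg arrays says stimulated and that of the WT Treg arrays says unstimulated, while the design text describes stimulation of naive cells only. Il2, an early product of T cell activation, stayed at background on all 8 Treg arrays. It did so in unstimulated CKO naive cells too, but exceeded background on at least 3 of 4 unstimulated WT naive arrays. Its absence therefore cannot tell how the Treg were treated. Of 7 activation markers 0 differed between the Treg genotypes by limma at an adjusted p under 0.05. Their response to stimulation was measured in naive cells only, so a difference in Treg treatment was not tested. Both Treg groups are called Treg here, and a difference in their treatment cannot be told apart from genotype. Nothing in the labels states that replicates came from separate animals, so each p-value is about the spread of these samples, which may be technical.

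Ribosome production starts in the nucleolus, where RNA polymerase I transcribes the long precursor of the 18S, 5.8S and 28S ribosomal RNAs. The small subunit processome, a large complex built around the U3 snoRNA, folds and cleaves the part that becomes the small subunit, while pre-60S factors mature the remainder. H/ACA snoRNPs convert chosen uridines to pseudouridine and C/D snoRNPs methylate chosen riboses, each guided by its RNA. Resting T cells make few ribosomes, and activation through the antigen receptor is known to enlarge the nucleolus and raise MYC, a transcription factor that binds E-boxes near the start of many of these genes.

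Promoter sequence is shown for the 4 H/ACA genes, chosen because their class had the largest median difference between genotypes in resting cells, and for 3 genes with an E-box in the window, chosen to show where it lies. Each run is the 150 bases before the RefSeq transcription start on GRCm38.p6, 5′ to 3′ on the gene's strand. Capitals mark the E-box CACGTG or the ETS-type motif CCGGAAG, searched on both strands (CTTCCGG is its reverse), and the letters of the 2 motifs cannot overlap.

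Gar1: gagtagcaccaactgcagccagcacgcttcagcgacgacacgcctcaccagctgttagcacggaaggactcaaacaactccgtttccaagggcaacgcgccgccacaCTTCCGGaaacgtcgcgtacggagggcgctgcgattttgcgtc

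Dkc1: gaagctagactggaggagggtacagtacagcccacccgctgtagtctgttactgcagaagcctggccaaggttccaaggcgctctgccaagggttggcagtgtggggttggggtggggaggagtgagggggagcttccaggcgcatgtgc

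Nhp2: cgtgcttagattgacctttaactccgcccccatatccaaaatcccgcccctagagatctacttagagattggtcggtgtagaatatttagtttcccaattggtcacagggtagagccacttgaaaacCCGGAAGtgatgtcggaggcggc

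Nop10: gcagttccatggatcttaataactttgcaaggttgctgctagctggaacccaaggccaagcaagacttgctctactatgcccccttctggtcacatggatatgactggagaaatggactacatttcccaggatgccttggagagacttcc

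Nop2: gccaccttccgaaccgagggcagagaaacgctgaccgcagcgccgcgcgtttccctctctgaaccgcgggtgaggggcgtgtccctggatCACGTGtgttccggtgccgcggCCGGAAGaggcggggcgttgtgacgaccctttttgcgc

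Utp18: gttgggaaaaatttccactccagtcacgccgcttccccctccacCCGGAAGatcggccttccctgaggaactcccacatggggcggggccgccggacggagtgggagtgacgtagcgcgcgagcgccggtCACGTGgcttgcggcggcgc

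Imp4: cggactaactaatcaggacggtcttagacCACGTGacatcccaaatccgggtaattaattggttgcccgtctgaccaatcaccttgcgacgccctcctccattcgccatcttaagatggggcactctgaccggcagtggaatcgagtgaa

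The run of Gar1 is at chr3:129831397-129831546, reverse strand, that of Dkc1 at chrX:75095704-75095853, forward strand, that of Nhp2 at chr11:51619623-51619772, forward strand, and that of Nop10 at chr2:112261776-112261925, forward strand. The runs of Nop2, Utp18 and Imp4 are at chr6:125131733-125131882, forward strand, at chr11:93885767-93885916, reverse strand, and at chr1:34439679-34439828, forward strand. None of the 4 H/ACA windows (250 bases before to 50 after the start) held the E-box, and 2 of the 4, those of Gar1 and Nhp2, held the ETS-type motif. Its first base lay 43 bases before the start of Gar1 and 23 before that of Nhp2. In Nop2 the E-box began 60 bases and the ETS-type motif 38 bases before the start, and in Utp18 they began 20 and 106 bases before it. Imp4 held the E-box 121 bases before its start. Over the 44 members that had a RefSeq window, 8 (18.2%) held the E-box, against 8.09% of all 27025 genes with a window and 11.6% of the genes whose windows were at least 60% G and C. The 8 were Imp4, Tsr1, Utp18, Utp20 and Wdr43 of the small subunit class, Nop2 and Pes1 of the large subunit class, and Mybbp1a. The ETS-type motif stood in 16 of the 44 (36.4%), against 9.93% of all genes and 17.5% of those at 60% G and C or more. Member windows had a median of 58.7% G and C and all windows 52.7%. Srm, Npm1, Fbl, Bop1, Rrs1 and Rrp12 had no entry in the table. A match is a description of these letters and not a binding site.

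Values below are log2 levels, the log2 of a probe's signal minus the log2 of the array's 75th percentile, so a level of 0 equals that percentile and levels of different genes cannot be ranked against each other. The 4 values of a group are always listed from replicate 1 to replicate 4. A difference is given with its standard error from limma over 4 arrays a group, as CKO minus WT, stimulated minus unstimulated or Treg minus naive, and a member is said to have risen or fallen when its Benjamini-Hochberg adjusted p over all 16484 genes was under 0.05. The 20 alternatives that a call is set against are 12 other ways of processing and the removal of each of the 8 arrays compared. They are not independent. Quantile normalization and the authors' values, whose columns share the same distribution, gave nearly the same calls (3003 genes with either between resting genotypes). Arrays showed 43.0% to 61.2% of probes well above background, and replicates of a group correlated at 0.961 to 0.993 over genes. The 75th percentile signal lay between 160 and 382 in naive cells, between 55.6 and 208 in WT Treg and between 32.5 and 119 in CKO Treg, with WT Treg replicates 3 and 4 and all 4 CKO Treg arrays below every naive array. Trim28 fell in CKO, with a log2 difference of -1.51 ± 0.17 in unstimulated and -2.68 ± 0.17 in stimulated naive cells and of -1.56 ± 0.17 in Treg (adjusted p = 4.83e-06, 1.1e-09 and 2.39e-06, limma). All 6 T cell markers were well above background in every group, and Foxp3 and Il2ra, the defining Treg markers, were higher in Treg than in unstimulated naive cells by 6.03 and 7.35 in WT. Markers of other cells were present too. The summed level of 7 B cell markers ran from 6.65 to 25.6 times the 75th percentile in WT and from 16.5 to 56.9 in CKO unstimulated naive arrays, and from 0.467 to 2.75 and 1.44 to 5.77 in stimulated ones. Summed over 8 myeloid and dendritic markers, among them Ly6c1, which T cells also express, the level was 135 to 232 in WT and 183 to 259 in CKO unstimulated arrays, and 13.7 to 29.3 and 19.1 to 63.9 in stimulated ones. In Treg the B cell sums overlapped, at 3.80 to 9.24 in WT and 4.33 to 12.4 in CKO. Of 5 Treg markers 4 were higher in CKO than in WT unstimulated naive cells, among them Foxp3 (0.95 ± 0.20, adjusted p = 0.00363) and Il2ra (1.10 ± 0.16, adjusted p = 0.000112). After stimulation 3 of 5 were higher, Foxp3 by 2.45 ± 0.20 (adjusted p = 5.38e-08), while Il2ra differed by 0.00 ± 0.16 (adjusted p = 0.997). Of 5 markers of CD8, NK and unconventional T cells 2 were higher in CKO at rest (median 1.25), 1 after stimulation (0.44) and 1 in Treg (0.45), and of 7 B cell markers 1, 2 and 0. These marker levels moved with stimulation and with genotype, and their part in the results below was not tested. In such bulk samples fewer cells of a type and less RNA per cell cannot be told apart.

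Stimulation raised nearly all of the 50 members. In WT naive cells 49 of 50 members rose and 0 fell after 13 h, where 31.8% of all genes rose, 30.1% fell and 61.9% changed either way. The median difference over the members was 2.06 on the log2 scale, against -0.02 over all genes. The 4 arrays of each group did not overlap for 48 members, against 29.3% of all genes higher without overlap. Imp4, a U3 snoRNP protein measured by a dim probe, was the 1 member not called, with an adjusted p of 0.0804 (limma). CKO cells gave 49 of 50 as well, with a median of 2.19 (30.0% of all genes rose, 30.2% fell and 60.3% changed, and 28.6% were higher without overlap), and there the exception was Ddx10, an RNA helicase, at an adjusted p of 0.292. H/ACA proteins had the largest median rise, 2.57 in WT and 3.15 in CKO, followed in WT by the multifunctional proteins at 2.29, C/D proteins at 2.22, large subunit factors at 2.19, small subunit factors at 1.85 and polymerase I subunits at 1.57. The order of these medians describes the chosen members and was not tested. On single arrays the median over the 50 members, as difference from each member's WT unstimulated mean, was 2.02 to 2.11 in stimulated WT and 1.65 to 1.89 in stimulated CKO cells. It was -0.06 to 0.16 in resting WT cells, -0.56 to -0.32 in resting CKO cells, -0.75 to -0.32 in WT Treg and -1.02 to -0.59 in CKO Treg.

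**Figure D1:**
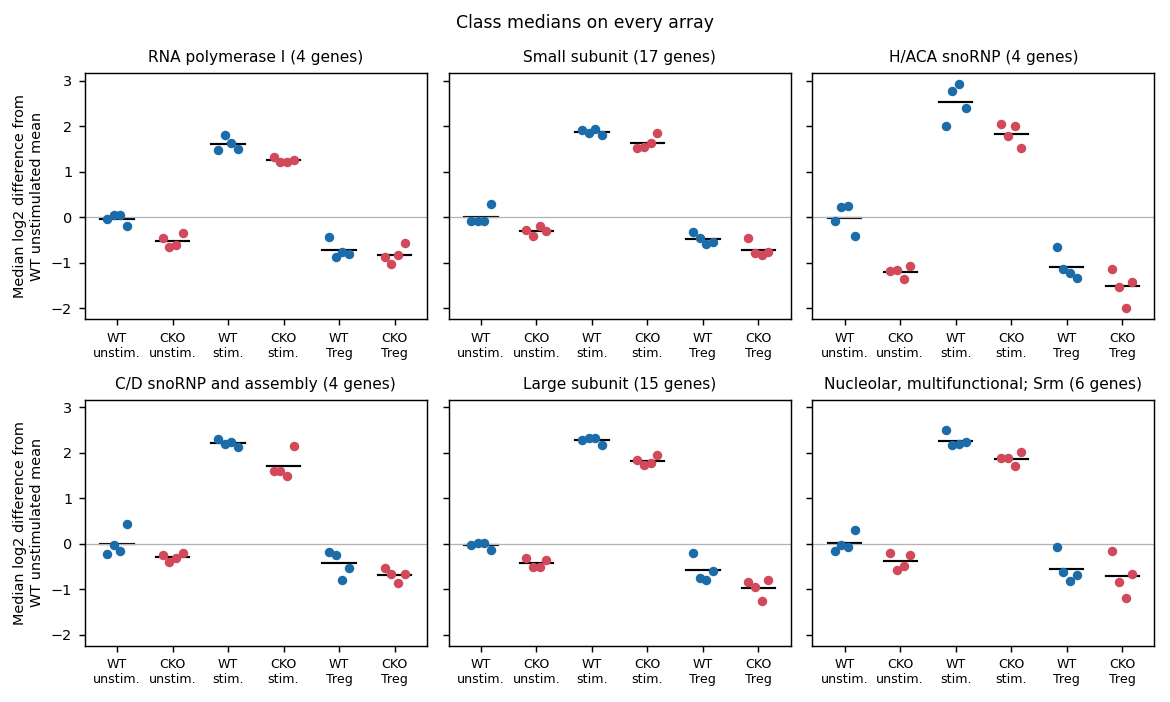
Median over the members of each class on every array, as log2 difference from each member's mean in WT unstimulated naive cells (vertical axis), by group (horizontal axis). Each point is 1 array (WT blue, CKO red) and each bar a group mean; the H/ACA points of unstimulated CKO cells lie between -1.36 and -1.07, below the WT points at -0.41 to 0.24, and all stimulated points of every class lie above all unstimulated ones.

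In resting naive cells many of the members were lower in CKO than in WT. Of 50 members 24 fell and 0 rose, where 11.0% of all genes fell, 7.76% rose and 18.8% changed either way. The median member differed by -0.40, against 0.01 over all genes, and 44 of 50 lay below 0. For 25 members every CKO array was below every WT array, against 12.6% of all genes (8.07% were higher without overlap). Among the 24 were 3 of 4 polymerase I subunits, 7 of 17 small subunit factors, 3 of 4 H/ACA proteins, 0 of 4 C/D proteins, 8 of 15 large subunit factors and 3 of 6 multifunctional proteins. The class medians ran from -1.24 for H/ACA to -0.27 for C/D proteins. The 4 slides that carried unstimulated naive arrays each held a WT and a CKO one, and the median member difference within them was -0.28, -0.54, -0.42 and -0.52. The count was 5 when the background was corrected by normexp instead of the scanner software. Over all genes the same change took the calls from 3095 to 410, of which 241 were lower. Without WT unstimulated replicate 4, 22 members fell and 2 rose, Ddx10 and Nat10.

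In stimulated naive cells 16 of 50 members fell in CKO and 0 rose, where 12.5% of all genes fell, 11.7% rose and 24.2% changed. The median member differed by -0.34, against -0.05 over all genes, 48 of 50 lay below 0, and the groups did not overlap for 23, against 15.3% of all genes lower and 10.3% higher without overlap. Those called were 1 polymerase I subunit, 2 small subunit factors, 3 H/ACA proteins, 2 C/D proteins, 5 large subunit factors and 3 multifunctional proteins. Within the 4 slides the median was -0.34, -0.55, -0.41 and -0.18. This count depended on the processing. Among other scalings it was 2, with a median of -0.10, after quantile normalization, 2 with the authors' normalized values and 10 on bright shared probes, and with array weights in the model it was 35. Calls over all genes went from 3990 to 2380, 2375, 3973 and 7456 in these 4 settings. The member count also fell to 8 without WT stimulated replicate 2, to 7 without CKO stimulated replicate 2 and to 10 without CKO stimulated replicate 3.

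Treg gave 4 calls between genotypes. Heatr1, Utp20, Noc2l and Rrs1 fell in CKO, 4 of 50 against 1.83% of all genes, and 0 rose (4.39% of genes changed either way). Over all members the median was -0.29, against 0.01 over all genes, 45 of 50 lay below 0, and 9 did not overlap between the groups (3.61% of all genes were lower without overlap). At an unadjusted limma p below the same threshold there were 20 members. The share of all genes at that p is not given, so this count is not a result about the members. Every one of the 4 calls was lost in some alternatives: 0 remained without WT Treg replicate 1, CKO Treg replicate 2 or CKO Treg replicate 3, with normexp, without the filter on dim probes, or when the 8 Treg arrays were fitted alone, whereas quantile normalization and the authors' values gave 12 (against 2 in stimulated cells with both), scaling on bright probes 8 and array weights 2. Over all genes the 723 calls became 82 with normexp, 530 without the filter and 373 with the Treg arrays alone. They became 1024 with quantile normalization, 1016 with the authors' values, 793 on bright probes and 660 with array weights.

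The 3 genotype comparisons used different arrays, though pairs of them shared slides. Of the members 41 of 50 were below 0 in all 3 states, and the other 9 were Ddx10, Nat10, Nop14, Nop56, Npm3, Polr1c, Rrp12, Utp18 and Wdr43. Resting and stimulated cells had 11 calls in common, 45.8% of the 24 in resting and 68.8% of the 16 in stimulated cells: Dkc1, Gnl3, Mrto4, Ncl, Nhp2, Nop16, Npm1, Rrs1, Srm, Wdr3 and Wdr75. Rrs1 was called in all 3 states and 20 members in none. Across the 50 members, which are not independent replicates, the differences in resting cells followed those in stimulated cells with Pearson's r of 0.72 (Spearman's rho 0.73), those in Treg with 0.64 (0.62), and stimulated cells and Treg with 0.32 (0.30). The same counts and correlations over all genes were not computed. These figures therefore describe the 50 members and are not a trait particular to them.

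**Figure D2:**
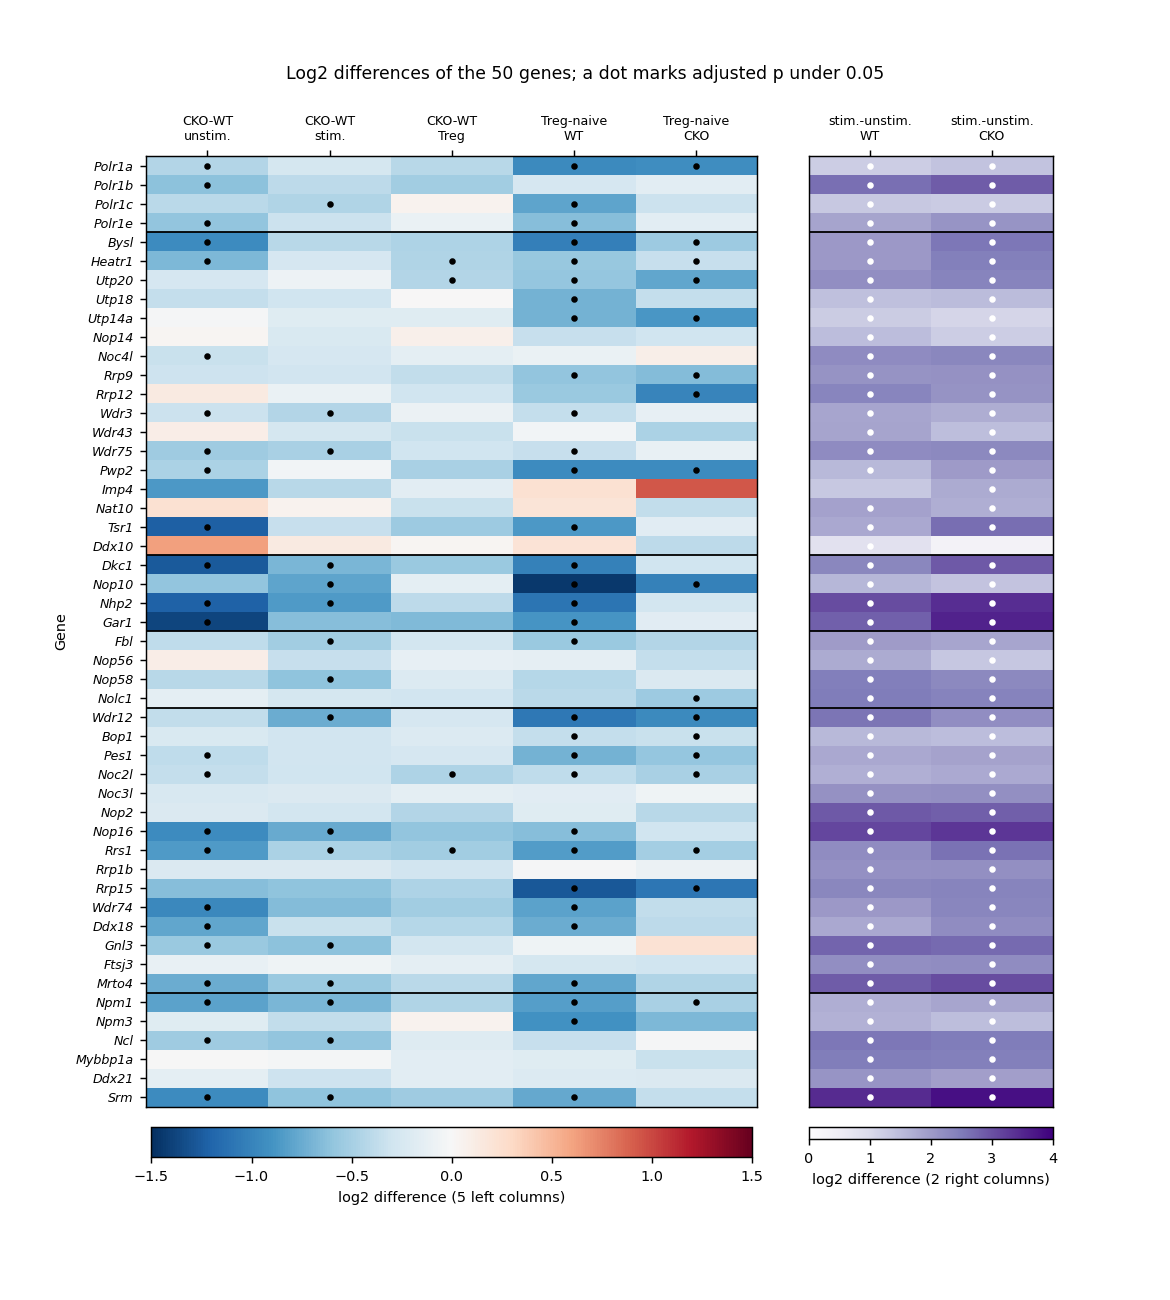
Log2 difference (colour) of each of the 50 members (rows, by class) in the 3 genotype comparisons, the 2 stimulation comparisons and the 2 Treg comparisons (columns); a dot marks a limma adjusted p under 0.05. The 3 genotype columns are lower for most members, with 24, 16 and 4 dots, and both stimulation columns are higher with 49 dots each.

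Against resting naive cells of the same genotype, 31 of 50 members were lower in WT Treg and 17 in CKO Treg. In WT 0 were higher, where 29.8% of all genes were lower and 48.6% differed, with a median of -0.58 against -0.10 over all genes. The groups did not overlap for 25 members (22.3% of all genes were lower without overlap). In CKO 0 were called higher as well, where 16.5% of all genes were lower and 28.2% differed, the median was -0.36, and 18 were lower without overlap (17.8% of all genes). Gnl3, which was not called, was the 1 member higher without overlap (13.1% of all genes). Without CKO Treg replicate 3 the CKO count was 11. Of the 32 other probes of the members 13 were lower and 4 higher in WT, and 7 lower and 1 higher in CKO. All 4 H/ACA proteins, 10 of 15 large subunit factors, 10 of 17 small subunit factors and 3 of 4 polymerase I subunits were lower in WT Treg, against 1, 6, 7 and 1 in CKO. Both genotypes were compared directly through the interaction, which called 0 members by limma for cell type (0.406% of all genes were called) and 0 for stimulation (3.45% of all genes, 2.14% higher and 1.31% lower). At an unadjusted limma p below the threshold there were 5 and 3 members. Those for cell type were Polr1c (0.46 ± 0.21), Polr1e (0.49 ± 0.20), Tsr1 (0.69 ± 0.25), Dkc1 (0.71 ± 0.28) and Nhp2 (0.82 ± 0.30), and those for stimulation were Heatr1 (0.43 ± 0.16), Tsr1 (0.88 ± 0.25) and Ddx18 (0.44 ± 0.21). The smallest adjusted p among them was 0.0564, for Tsr1 and stimulation. No share of all genes stands beside these unadjusted counts, so they are not a result about the members.

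RNA polymerase I was represented by Polr1a, its largest and catalytic subunit, Polr1b, the second largest, Polr1c, which is shared with RNA polymerase III, and Polr1e, a subunit that takes part in initiation. In unstimulated naive cells Polr1a stood at 2.91, 2.84, 2.80 and 3.20 in WT and 2.49, 2.28, 2.57 and 2.65 in CKO. After stimulation it stood at 3.94, 4.17, 4.26 and 4.29 in WT and 3.83, 3.89, 3.75 and 4.11 in CKO. The resting groups did not overlap, the stimulated ones did, and all stimulated arrays were above all resting ones. Polr1a fell in resting CKO cells by 1.36-fold (-0.44 ± 0.13, adjusted p = 0.0228, limma), a call lost in 5 of 20 alternatives, and differed by -0.27 ± 0.13 in stimulated cells (adjusted p = 0.128). The resting value was -0.19 (adjusted p = 0.472) as the mean of its probes, and the call was also lost without CKO unstimulated replicate 2 (adjusted p = 0.0876), with normexp, without the filter on dim probes and when the 8 resting arrays were fitted alone. Treg levels were 2.24, 2.04, 1.75 and 1.89 in WT and 1.59, 1.60, 1.42 and 1.64 in CKO, without overlap, at an adjusted p of 0.0766. Polr1a was lower in Treg than in resting naive cells in both genotypes, with differences of -0.96 ± 0.13 in WT and -0.93 ± 0.13 in CKO (adjusted p = 9.27e-06 and 1.72e-05).

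Polr1b stood at 0.70, 0.43, 0.48 and 0.27 in resting WT and -0.19, -0.15, -0.33 and 0.09 in resting CKO cells, with every CKO array below every WT array. Stimulated cells gave 2.82, 3.26, 3.25 and 3.14 in WT and 2.93, 2.69, 2.70 and 2.58 in CKO, the largest rise of the 4 subunits (2.64 ± 0.16 in WT, 6.25-fold, and 2.87 ± 0.16 in CKO). In Treg it stood at 0.31, 0.07, 0.02 and 0.49 in WT and -0.65, -0.48, -0.15 and 0.07 in CKO, where 1 CKO array lay among the WT arrays. Its difference between genotypes was -0.62 ± 0.16 in resting (adjusted p = 0.0118), -0.39 ± 0.16 in stimulated (adjusted p = 0.0746) and -0.53 ± 0.16 in Treg cells (adjusted p = 0.0653). A second, dimmer probe of Polr1b went the other way in resting cells, at 1.45, and the mean of both probes was 0.42 with an adjusted p of 0.201, so the resting call rests on the brighter probe.

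Polr1c stood at 3.53, 3.82, 3.73 and 3.45 in resting WT and 3.23, 3.04, 3.17 and 3.45 in resting CKO cells, which met at the edge. In stimulated cells it stood at 4.91, 5.07, 5.02 and 4.73 in WT and 4.61, 4.52, 4.34 and 4.44 in CKO, without overlap. It was the 1 polymerase I subunit called in stimulated cells (-0.45 ± 0.15, adjusted p = 0.0333), a call lost in 11 of 20 alternatives, among them the removal of WT stimulated replicates 1, 2 or 3 and of CKO stimulated replicates 2, 3 or 4. The resting difference was -0.41 ± 0.15 (adjusted p = 0.0609). Treg levels of 3.30, 2.73, 2.74 and 2.60 in WT and 3.18, 2.68, 2.76 and 2.97 in CKO overlapped, with a difference of 0.06 ± 0.15.

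Polr1e stood at -0.43, -0.26, -0.29 and -0.58 in resting WT and -0.87, -1.06, -1.16 and -0.82 in resting CKO cells. The resting groups did not overlap, and Polr1e fell by 1.5-fold in CKO (-0.59 ± 0.14, adjusted p = 0.00983), a call lost only with normexp among the 20 alternatives (adjusted p = 0.269). After stimulation the levels of 1.29, 1.80, 1.48 and 1.27 in WT and 1.29, 1.08, 1.21 and 0.96 in CKO overlapped. In Treg they overlapped as well, at -0.90, -1.22, -1.02 and -0.98 in WT and -0.99, -1.50, -1.17 and -0.86 in CKO. From a list of 12 other polymerase I subunits and initiation factors, 1 fell in resting CKO cells, Polr1d (-0.46 ± 0.15), with a list median of 0.10. Of all genes 11.0% fell there, a share that 1 of 12 does not exceed. In stimulated cells 4 of the 12 were called between genotypes, where 24.2% of all genes changed. Among them Taf1c (1.55 ± 0.21, adjusted p = 3.81e-05, limma) and Taf1a (0.47 ± 0.16, adjusted p = 0.043) rose in CKO, and Polr1d fell (-0.57 ± 0.15). Without WT stimulated replicate 2 or CKO stimulated replicates 2 or 3, 1 was called higher and 1 lower. Stimulation raised 7 of these 12 in WT, among them Taf1d (2.49 ± 0.24), Cd3eap (2.26 ± 0.21) and Rrn3 (1.15 ± 0.14), the factor that links the polymerase to the promoter. In that comparison 31.8% of all genes rose.

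The small subunit class holds U3 processome components such as Heatr1, Utp20, Utp18, Pwp2 and Wdr75, and factors of later pre-40S steps such as Tsr1 and Bysl. Tsr1, a GTPase-like factor of late pre-40S particles, stood at 1.08, 1.12, 1.37 and 0.67 in resting WT and -0.15, -0.21, -0.35 and 0.03 in resting CKO cells. In stimulated cells it stood at 2.61, 3.07, 3.00 and 2.70 and 2.64, 2.49, 2.78 and 2.08, and in Treg at 0.44, -0.28, 0.32 and 0.30 and -0.38, -0.45, -0.35 and -0.20, in WT and CKO. All resting CKO arrays were below all resting WT arrays, and the other pairs overlapped. Tsr1 fell by 2.34-fold in resting CKO cells (-1.23 ± 0.18, adjusted p = 9.73e-05), the largest change of its class, in each of the 20 alternatives, and differed by -0.35 ± 0.18 in stimulated cells (adjusted p = 0.152).

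Heatr1, the mammalian counterpart of yeast Utp10 and needed for polymerase I transcription as well as processing, stood at 2.06, 1.89, 2.03 and 2.08 in resting WT and 1.32, 1.26, 1.27 and 1.50 in resting CKO cells. Stimulated cells gave 3.97, 4.00, 4.15 and 4.01 in WT and 3.88, 3.79, 3.84 and 3.63 in CKO, and Treg gave 1.67, 1.20, 1.43 and 1.48 in WT and 0.91, 0.86, 0.95 and 1.26 in CKO. The naive groups did not overlap in either state, and in Treg the highest CKO array lay within the WT range. Heatr1 fell in resting CKO cells (-0.68 ± 0.11, adjusted p = 0.000436) and in CKO Treg (-0.45 ± 0.11, adjusted p = 0.0199), and differed by -0.25 ± 0.11 in stimulated cells (adjusted p = 0.109). The Treg call was lost in 9 of 20 alternatives, among them the removal of WT Treg replicate 1 or CKO Treg replicates 1, 2 or 3, and the mean over its probes gave no call in either state, -0.07 in resting cells and -0.25 in Treg.

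Utp20, a scaffold protein of the processome, stood at 1.30, 1.18, 1.23 and 1.53 in resting WT and 1.03, 1.03, 1.14 and 1.04 in resting CKO cells, and at 3.59, 3.40, 3.55 and 3.48 and 3.26, 3.30, 3.60 and 3.54 after stimulation. In Treg it stood at 0.99, 0.74, 0.50 and 0.68 in WT and 0.41, 0.25, 0.13 and 0.34 in CKO. The genotypes did not overlap at rest or in Treg and did after stimulation. Utp20 fell in CKO Treg (-0.44 ± 0.11, adjusted p = 0.0285), a call lost in 8 of 20 alternatives, among them the removal of WT Treg replicates 1 or 2 or CKO Treg replicates 2 or 3 and the mean of its probes (-0.09), and differed by -0.25 ± 0.11 in resting cells (adjusted p = 0.132). Bysl (-0.94 ± 0.19, adjusted p = 0.0021), Wdr75 (-0.54), Pwp2 (-0.48), Noc4l (-0.33) and Wdr3 (-0.32) also fell in resting CKO cells. The calls of Pwp2, Noc4l and Wdr3 were lost in 7, 6 and 13 of 20 alternatives. Among these were the removal of WT unstimulated replicates 2 or 4 or CKO unstimulated replicates 2 or 3 for Pwp2, of WT replicate 1 or CKO replicates 2 or 3 for Noc4l, and of any resting array for Wdr3. Wdr75 (-0.49) and Wdr3 (-0.44) were the 2 of the class that fell in stimulated cells.

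Rrp12, which takes part in export of both subunits, had the largest rise of the class on stimulation in WT. Its resting levels were -0.10, -0.25, -0.28 and 1.00 in WT and 0.42, 0.04, 0.38 and 0.08 in CKO, and its stimulated levels were 2.92, 2.41, 1.94 and 2.52 and 2.18, 2.54, 1.78 and 2.89. WT replicate 4 was the highest resting array by a wide gap. Rrp12 rose by 2.35 ± 0.26 in WT and by 2.12 ± 0.26 in CKO, and it had no genotype call. In Treg it stood at -0.26, -0.43, -0.67 and -0.50 in WT and -0.50, -0.77, -0.75 and -1.03 in CKO, and in CKO it was lower in Treg than in resting naive cells (-0.99 ± 0.26, adjusted p = 0.00788).

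Ddx10 rose least of the class in WT. Its resting levels were 0.78, 0.82, 0.86 and 1.92 in WT and 1.69, 1.67, 1.83 and 1.68 in CKO, its stimulated levels 2.51, 1.45, 1.54 and 2.10 and 1.64, 1.99, 1.73 and 2.80, and its Treg levels 1.31, 1.42, 1.15 and 1.34 and 1.46, 1.39, 1.19 and 1.27. WT resting replicate 4 was again apart, above its 3 fellows and all 4 CKO arrays. Ddx10 rose by 0.80 ± 0.26 in WT (adjusted p = 0.0104), and the difference between resting genotypes was 0.62 ± 0.26 (adjusted p = 0.0971). The array values overlapped between resting and stimulated WT cells. Its probes disagreed: the second, dimmer one gave -0.56 ± 0.16 between resting genotypes (adjusted p = 0.0179 over probes, limma), and rises of 0.93 in WT and 1.08 in CKO.

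The 4 H/ACA core proteins are Dkc1, the pseudouridine synthase, and Nop10, Nhp2 and Gar1, which bind it in snoRNPs and in telomerase. Dkc1 stood at -0.81, -0.34, -0.41 and -1.22 in resting WT and -2.06, -1.78, -2.04 and -1.97 in resting CKO cells. Its stimulated levels were 1.16, 1.81, 2.01 and 1.50 in WT and 1.01, 0.83, 1.16 and 0.73 in CKO. WT and CKO did not overlap in resting cells, and in stimulated cells the highest CKO array came within rounding of the lowest WT array. Dkc1 fell by 2.4-fold in resting (-1.27 ± 0.20, adjusted p = 0.000294) and by 1.61-fold in stimulated CKO cells (-0.69 ± 0.20, adjusted p = 0.0181). The stimulated call was lost in 6 of 20 alternatives, among them without WT stimulated replicates 2 (adjusted p = 0.0605) or 3 (0.0662) or CKO stimulated replicate 2 (0.051). Treg levels were -1.42, -1.63, -1.93 and -1.87 in WT and -2.35, -2.03, -2.62 and -2.06 in CKO, without overlap, at -0.55 ± 0.20 (adjusted p = 0.157).

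Gar1 stood at -0.10, 0.03, 0.06 and -1.08 in resting WT and -1.83, -1.84, -1.66 and -1.27 in resting CKO cells. All resting CKO arrays were below all resting WT arrays, the nearest being WT replicate 4. Gar1 had the largest fall of all 50 members, 2.6-fold (-1.38 ± 0.27, adjusted p = 0.00212). Stimulated levels of 1.89, 3.06, 2.87 and 2.35 in WT and 2.24, 1.85, 2.17 and 1.38 in CKO overlapped, with a difference of -0.64 ± 0.27 (adjusted p = 0.0906). In Treg it stood at -0.85, -1.42, -1.16 and -1.19 in WT and -1.55, -2.09, -2.05 and -1.60 in CKO, without overlap, at an adjusted p of 0.229.

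Nhp2 stood at 2.94, 3.16, 3.20 and 2.72 in resting WT and 2.04, 1.76, 1.51 and 1.86 in resting CKO cells, and at 5.81, 6.05, 6.44 and 5.91 and 5.39, 5.04, 5.16 and 5.23 after stimulation. Neither pair overlapped. It fell by 2.32-fold in resting (-1.22 ± 0.21, adjusted p = 0.000677) and by 1.8-fold in stimulated CKO cells (-0.85 ± 0.21, adjusted p = 0.00715). The resting call held in all 20 alternatives, and the stimulated one was lost with quantile normalization and with the authors' values (adjusted p = 0.117 in both). Treg levels of 2.42, 1.90, 1.80 and 1.51 in WT and 2.02, 1.54, 0.94 and 1.53 in CKO overlapped.

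Nop10 stood at 4.55, 4.90, 4.71 and 4.83 in resting WT and 4.41, 4.02, 3.99 and 4.22 in resting CKO cells, and at 6.42, 6.41, 6.36 and 6.14 and 5.65, 5.43, 5.05 and 6.05 after stimulation. Both pairs were without overlap. Nop10 fell in stimulated CKO cells (-0.79 ± 0.24, adjusted p = 0.0228), a call lost in 6 of 20 alternatives, among them the removal of WT stimulated replicates 1 or 2 or CKO stimulated replicates 2 or 3, while the resting difference of -0.59 ± 0.24 missed the threshold (adjusted p = 0.0894). Treg levels were 3.90, 3.49, 2.90 and 2.91 in WT and 3.79, 3.15, 2.60 and 3.07 in CKO, and in both genotypes Nop10 was lower in Treg than in resting naive cells, with differences of -1.45 ± 0.24 in WT and -1.01 ± 0.24 in CKO. On stimulation the class rose from 1.59 in Nop10 to 3.05 in Nhp2 in WT, with Gar1 at 2.82 ± 0.27 and Dkc1 at 2.32 ± 0.20. In CKO Gar1 rose by 3.56 ± 0.27 and Nhp2 by 3.41 ± 0.21.

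**Figure D3:**
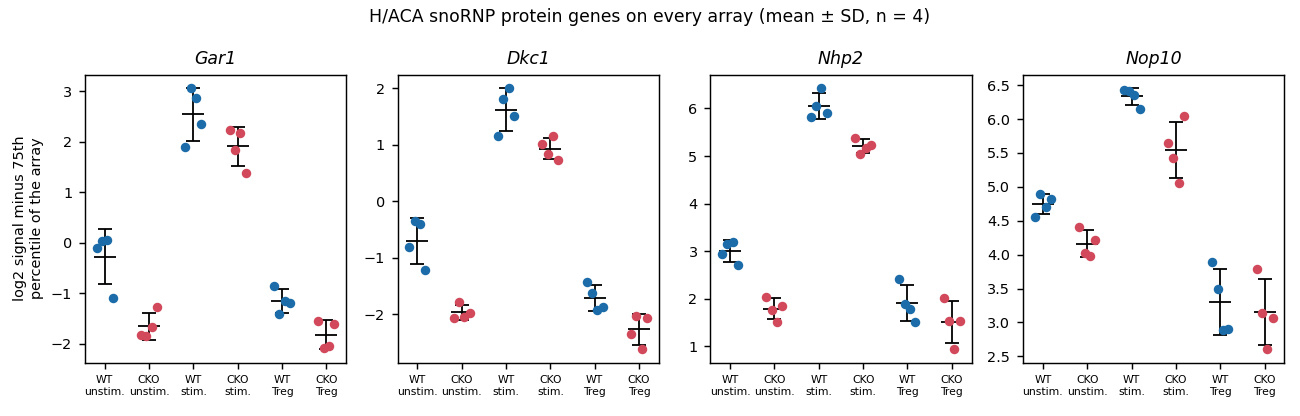
Log2 level relative to the array's 75th percentile (vertical axis) of the 4 H/ACA proteins on all 24 arrays, by group (horizontal axis), with 1 point per array (WT blue, CKO red) and the mean ± SD in black (n = 4). In unstimulated cells the CKO points lie below the WT points for all 4 genes, for Gar1 between -1.84 and -1.27 against -1.08 to 0.06.

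The C/D class had no call in resting CKO cells, and Fbl (-0.52 ± 0.18, adjusted p = 0.0466), the methyltransferase, and Nop58 (-0.60 ± 0.18, adjusted p = 0.0193), a core scaffold, fell in stimulated ones. The Fbl call was lost in 13 of 20 alternatives, among them the removal of any stimulated array except CKO replicate 4. The Nop58 call was lost in 6, among them the removal of WT stimulated replicate 1 or of CKO stimulated replicate 2 or 3. Nop56, the partner scaffold of Nop58, stood at 4.22, 4.65, 4.92 and 5.43 in resting WT and 4.46, 4.96, 5.23 and 4.96 in resting CKO cells. Its stimulated levels were 6.37, 6.26, 6.92 and 6.71 and 5.85, 6.01, 6.24 and 6.80, and its Treg levels 4.45, 4.89, 4.65 and 4.68 and 4.25, 4.58, 4.74 and 4.62. The genotypes overlapped in every state, and its rise of 1.76 ± 0.24 in WT was the smallest of the class.

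Nolc1, a chaperone of snoRNPs between Cajal bodies and nucleoli, stood at 2.69, 3.00, 2.82 and 3.61 in resting WT and 3.21, 2.77, 2.79 and 2.73 in resting CKO cells. Its stimulated levels were 5.50, 5.44, 5.52 and 5.60 and 5.16, 5.25, 4.91 and 5.70, and its Treg levels 2.87, 2.83, 2.30 and 2.46 and 2.45, 2.42, 2.15 and 2.28. All stimulated arrays were above all resting ones, while genotypes overlapped. Nolc1 had the largest rise of the class in WT (2.49 ± 0.19), and its differences between genotypes were -0.15 ± 0.19, -0.26 ± 0.19 and -0.29 ± 0.19 in resting, stimulated and Treg cells. From 7 other snoRNP factors, 6 of which were tested, Pih1d1, a subunit of the R2TP assembly complex, fell in resting CKO cells (-1.06 ± 0.24, adjusted p = 0.00617), and Snu13 (-0.85 ± 0.19) and Nufip1 (-0.52 ± 0.17) fell in stimulated ones. The 6 had medians of -0.28 and -0.57, and of all genes 11.0% and 12.5% fell in the 2 states.

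Among the large subunit factors Rrs1, which helps to place the 5S ribonucleoprotein on the pre-60S particle, was called in all 3 genotype comparisons. It stood at 0.92, 1.06, 1.16 and 0.84 in resting WT and 0.22, 0.04, -0.11 and 0.39 in resting CKO cells, at 3.11, 3.31, 3.33 and 3.16 and 2.84, 2.60, 2.65 and 2.94 after stimulation, and at 0.45, 0.01, 0.18 and -0.03 and -0.28, -0.47, -0.50 and -0.23 in Treg. No pair overlapped. The differences were -0.85 ± 0.13 (adjusted p = 0.000205), -0.47 ± 0.13 (adjusted p = 0.0147) and -0.52 ± 0.13 (adjusted p = 0.021). The resting call held in all 20 alternatives, the stimulated one was lost in 4, among them without CKO stimulated replicate 2 (adjusted p = 0.0542), and the Treg one in 8, among them without WT Treg replicates 1 or 3 or CKO Treg replicates 2 or 3.

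Nop16 stood at 0.68, 0.99, 0.77 and -0.06 in resting WT and -0.49, -0.49, -0.44 and 0.05 in resting CKO cells, where CKO replicate 4 reached into the WT range. Stimulated levels of 3.36, 4.06, 4.00 and 3.45 in WT and 3.20, 2.95, 3.04 and 2.66 in CKO did not overlap. It fell in resting (-0.94 ± 0.23, adjusted p = 0.00963) and stimulated CKO cells (-0.75 ± 0.23, adjusted p = 0.0235), the latter call lost in 8 of 20 alternatives, among them the removal of WT stimulated replicates 2 or 3 or CKO stimulated replicates 2 or 4. In Treg it stood at 0.37, -0.15, -0.33 and -0.06 in WT and -0.42, -0.79, -1.05 and -0.29 in CKO, which overlapped. Nop16 had the largest rise of the class in both genotypes (3.12 ± 0.23 and 3.31 ± 0.23).

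Wdr12, Pes1 and Bop1 form a trimer needed for processing of the large subunit rRNA. Wdr12 stood at 1.45, 1.57, 1.33 and 0.91 in resting WT and 1.03, 0.88, 0.87 and 1.02 in resting CKO cells, at 3.77, 3.96, 4.15 and 3.74 and 3.36, 3.05, 3.14 and 3.10 after stimulation, and at 0.64, 0.14, 0.09 and 0.10 and 0.31, -0.14, -0.29 and 0.09 in Treg. The stimulated groups did not overlap, and Wdr12 fell there by 1.68-fold (-0.75 ± 0.16, adjusted p = 0.00257) in all 20 alternatives. Wdr12 was lower in Treg than in resting naive cells, at -1.07 ± 0.16 in WT and -0.95 ± 0.16 in CKO. Bop1 stood at 3.57, 3.46, 3.53 and 3.97 and 3.48, 3.23, 3.37 and 3.53 in resting, and at 5.14, 5.25, 5.20 and 5.18 and 4.87, 4.86, 4.74 and 5.11 in stimulated WT and CKO cells. Its stimulated arrays did not overlap between genotypes, with a difference of -0.29 ± 0.12 (adjusted p = 0.079). Bop1 had the smallest rise of the class (1.56 ± 0.12 in WT), and in Treg it stood at 3.47, 3.16, 3.22 and 3.26 in WT and 3.13, 2.97, 2.94 and 3.23 in CKO. Pes1 fell in resting CKO cells (-0.38 ± 0.13, adjusted p = 0.0395), a call lost in 12 of 20 alternatives, among them the removal of any resting array except WT replicate 1.

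Noc2l, a pre-60S export factor, stood at 3.74, 3.59, 3.75 and 4.00 in resting WT and 3.42, 3.27, 3.40 and 3.54 in resting CKO cells, at 5.48, 5.52, 5.51 and 5.39 and 5.20, 5.23, 5.13 and 5.14 after stimulation, and at 3.76, 3.20, 3.33 and 3.27 and 3.10, 2.82, 2.72 and 3.05 in Treg. No pair overlapped. It fell in Treg (-0.47 ± 0.12, adjusted p = 0.0316) and in resting cells (-0.36 ± 0.12, adjusted p = 0.045). The Treg call was lost in 7 of 20 alternatives, among them the removal of WT Treg replicates 1 or 3 or CKO Treg replicates 2 or 3, and the resting one in 14 of 20 alternatives, among them the removal of any resting array except CKO replicate 4.

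Nop2, which methylates a cytosine of the large subunit rRNA, stood at 3.81, 3.74, 3.93 and 3.41 in resting WT and 3.70, 3.46, 3.08 and 3.79 in resting CKO cells, and at 6.59, 6.63, 6.63 and 6.64 and 6.30, 6.38, 6.22 and 6.47 after stimulation. Its 2 genotypes overlapped at rest and not after stimulation, with no call in either (adjusted p = 0.463 and 0.307). It rose by 7.47-fold on stimulation in WT (2.90 ± 0.20), and its Treg levels were 3.76, 3.52, 3.53 and 3.35 in WT and 3.44, 3.11, 2.35 and 3.48 in CKO. Rrp15 stood at 1.95, 1.92, 1.84 and 2.18 in resting WT and 1.65, 1.14, 1.07 and 1.46 in resting CKO cells, without overlap, at -0.64 ± 0.23 (adjusted p = 0.0538). After stimulation it stood at 4.37, 4.38, 4.29 and 4.14 in WT and 3.77, 3.64, 3.23 and 4.15 in CKO. In Treg it stood at 1.24, 0.81, 0.35 and 0.42 in WT and 0.84, 0.17, -0.33 and 0.29 in CKO. Rrp15 was lower in Treg than in resting naive cells in both genotypes, with differences of -1.27 ± 0.23 and -1.09 ± 0.23. Its probes disagreed there in WT: their mean was 0.13 (adjusted p = 0.701).

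Other large subunit factors that fell in resting CKO cells were Wdr74 (-0.96 ± 0.31, adjusted p = 0.035), Ddx18 (-0.78 ± 0.15, adjusted p = 0.00176), Mrto4, a relative of the ribosomal stalk protein P0 (-0.75 ± 0.18, adjusted p = 0.00958), and Gnl3, or nucleostemin (-0.56 ± 0.14, adjusted p = 0.00864). The Wdr74 call was lost in 10 of 20 alternatives, among them the removal of any resting array except both replicates 4. In stimulated cells Gnl3 (-0.61 ± 0.14, adjusted p = 0.00316) and Mrto4 (-0.56 ± 0.18, adjusted p = 0.0324) fell too, the latter a call lost in 9 of 20 alternatives, among them the removal of WT stimulated replicates 2 or 3 or CKO stimulated replicates 2, 3 or 4. Gnl3 and Wdr12 were the members whose call in stimulated cells held in all 20 alternatives.

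Of the multifunctional proteins, Srm, spermidine synthase, stood at 2.93, 3.02, 3.04 and 3.23 in resting WT and 2.40, 1.99, 1.73 and 2.34 in resting CKO cells. Its stimulated levels were 6.39, 6.65, 6.54 and 6.43 in WT and 5.88, 5.78, 5.87 and 6.07 in CKO, and its Treg levels 2.77, 2.22, 2.07 and 2.10 and 2.02, 1.67, 1.39 and 1.96. The genotypes did not overlap in any state. Srm had the largest rise on stimulation of all 50 members, 10.9-fold in WT (3.45 ± 0.17) and 13.8-fold in CKO (3.79 ± 0.17). In CKO it fell at rest (-0.94 ± 0.17, adjusted p = 0.00108), in all 20 alternatives, and after stimulation (-0.60 ± 0.17, adjusted p = 0.0156), a call lost in 4 of 20 alternatives, among them without WT stimulated replicate 2 (adjusted p = 0.0519).

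Npm3, a histone chaperone of the nucleoplasmin family, stood at 4.46, 4.65, 4.43 and 5.20 in resting WT and 4.83, 4.30, 4.31 and 4.57 in resting CKO cells, at 6.74, 6.19, 6.28 and 6.17 and 5.87, 5.91, 5.64 and 6.50 after stimulation, and at 4.30, 3.81, 3.40 and 3.58 and 4.47, 3.73, 3.20 and 3.90 in Treg. The genotypes overlapped in every state, and its rise of 1.66 ± 0.25 in WT was the smallest of the class. Npm1, the abundant nucleolar chaperone of the same family, fell in resting (-0.80 ± 0.17, adjusted p = 0.00403) and stimulated CKO cells (-0.69 ± 0.17, adjusted p = 0.00763). Ncl, or nucleolin, also fell at rest (-0.54 ± 0.18, adjusted p = 0.0474) and after stimulation (-0.60 ± 0.18, adjusted p = 0.0246), with calls lost in 13 and 8 of 20 alternatives, among them the removal of any resting array except both replicates 4 and of WT stimulated replicates 1 or 2 or CKO stimulated replicates 2 or 3. Mybbp1a and Ddx21 had no genotype call, at 0.00 ± 0.21 and -0.15 ± 0.19 in resting cells.

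Genes of the same processes outside the 50 gave the background to these counts. In WT, stimulation raised 29 of 30 other small subunit factors (median 1.52) and 35 of 38 other pre-60S factors (1.45), the largest rise being that of Pno1 (3.31 ± 0.17), a pre-40S factor. Of all genes 31.8% rose there. In resting CKO cells 10 of the 30 and 10 of the 38 fell and 0 rose, in stimulated CKO cells 12 and 11, and in CKO Treg 1 and 3. Of all genes 11.0%, 12.5% and 1.83% fell in these 3 states. Wdr36 (-0.75 ± 0.14) and Tbl3 (-0.83 ± 0.19), both U3 processome proteins, were among the small subunit factors that fell at rest, and Rcl1 (-0.61 ± 0.10) was the 1 such factor in Treg. The other small subunit and pre-60S counts in stimulated cells were 1 and 2 after quantile normalization and with the authors' values, and 22 and 25 with array weights. Both resting counts were 0 with normexp. Single arrays moved them too. At rest the pre-60S count was 3 without WT unstimulated replicate 2 and 4 without WT replicate 3 or CKO replicates 2 or 3, and the small subunit count was 6 without WT replicates 2 or 3 and 14, with 2 rising, without WT replicate 4. After stimulation the pre-60S count was 6 when WT stimulated replicate 2 was removed, 5 when CKO replicate 3 was and 18 when CKO replicate 4 was, and the small subunit count was 7 with CKO replicate 2 or 3 removed. The windows of these lists held the E-box in 5 of 21 (23.8%) and 7 of 30 (23.3%) genes with a window.

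Ribosomal proteins are what the assembly factors place on the rRNA. On stimulation 3 of 40 of their mRNAs rose in WT and 0 fell, with a median of 0.04. Of all genes 31.8% rose and 30.1% fell. The median of the 50 members in the same comparison was 2.06. Between genotypes 15 of 40 fell at rest (median -0.41), 7 of 40 after stimulation (-0.46) and 0 of 40 in Treg (-0.18), with 0 rising. Of all genes 11.0%, 12.5% and 1.83% fell, so the 7 of 40 lay near that share. Rpl3 (-1.24 ± 0.23) and Rpl5 (-1.10 ± 0.19) were among the 15 that fell at rest. The 7 became 0 after quantile normalization and with the authors' values, 38 with array weights, 1 without WT stimulated replicate 2 or 3, 2 without CKO stimulated replicate 2 or 3, and 21 without CKO stimulated replicate 4. The 15 at rest became 9 after quantile normalization and with the authors' values.

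Genes of the other nuclear polymerases were set beside these. The polymerase II list includes Polr2e, Polr2f, Polr2h, Polr2k and Polr2l, which are subunits of polymerases I and III as well. That list is therefore not separate from polymerase I. Of 12 RNA polymerase II subunits 4 fell at rest (median -0.40), 6 after stimulation (-0.56) and 0 in Treg (-0.02), and 11 rose on stimulation in WT. Of all genes 11.0%, 12.5% and 1.83% fell, and 31.8% rose on stimulation in WT. The polymerase II genotype counts were 1 to 2 without WT unstimulated replicates 1, 2 or 3 or CKO unstimulated replicates 2 or 3 at rest, and 1 to 2 without WT or CKO stimulated replicates 2 or 3 after stimulation. Of 14 subunits of RNA polymerase III, shared ones included, 2 fell at rest (14.3%, against 11.0% of all genes), 1 fell and 1 rose after stimulation (where 24.2% of all genes changed), and 1 fell in Treg. These genotype counts lay near or below the share of all genes, except in Treg, where 1 gene is 7.14% of the list against 1.83%. On stimulation in WT 9 of them rose and 2 fell, with Polr3g at 2.27 ± 0.17 and its paralog Polr3gl at -3.23 ± 0.12.

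**Figure D4:**
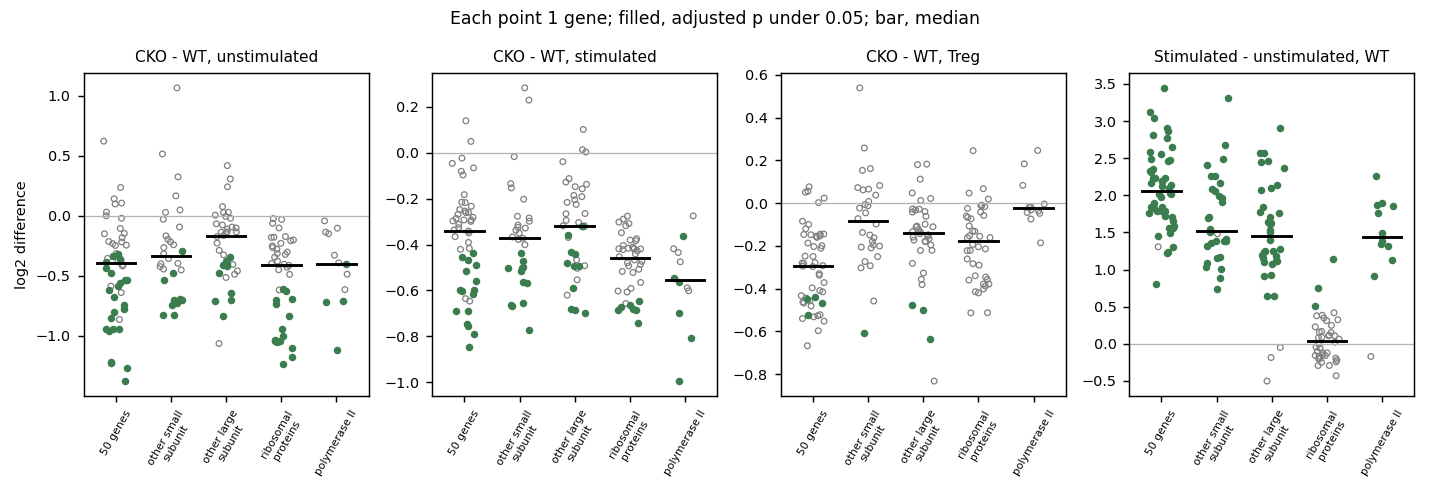
Log2 differences (vertical axis) of the 50 genes and of 4 other lists (horizontal axis) in the 3 genotype comparisons and for stimulation in WT, with 1 point per gene, filled at a limma adjusted p under 0.05, and a bar at the median. Ribosomal proteins lie around 0.04 on stimulation while the ribosome biogenesis members lie around 2.06, and medians of the members in the genotype comparisons are -0.40, -0.34 and -0.29.

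Myc itself fell in CKO, with differences of -0.55 ± 0.15 at rest (adjusted p = 0.0171), -0.60 ± 0.15 after stimulation (adjusted p = 0.00801) and -0.60 ± 0.15 in Treg (adjusted p = 0.0212). It rose on stimulation by 2.03 ± 0.15 in WT and 1.98 ± 0.15 in CKO. Against resting naive cells Myc was higher in WT Treg, by 0.40 ± 0.15 (adjusted p = 0.0351, limma), where 31 members were lower. In CKO Treg it differed by 0.34 ± 0.15 (adjusted p = 0.0931), where 17 members were lower. Between genotypes the resting call was lost without WT or CKO unstimulated replicate 3 (adjusted p = 0.0641 and 0.0637). The Treg genotype call was lost without WT Treg replicates 1 or 3 or CKO Treg replicate 3, and the stimulated genotype call with quantile normalization (-0.31, adjusted p = 0.17). In a list of 12 tested genes of MYC, its partners and polyamine synthesis, 3 rose and 2 fell in stimulated CKO cells. Of all genes 11.7% rose and 12.5% fell, so the 2 lay near that share. The 3 list genes that rose were Mxd4 (1.21 ± 0.16, adjusted p = 2.04e-05) and Mxd1 (0.99 ± 0.26, adjusted p = 0.00998), which compete with MYC for its partner MAX, and Smox, spermine oxidase (1.18 ± 0.17, adjusted p = 6.58e-05). The list changed to 3 up and 5 down without CKO stimulated replicate 4. Mxd4 and Mxd1 fell on stimulation in WT (-3.22 ± 0.16 and -3.07 ± 0.26), and Odc1, the first enzyme of polyamine synthesis, rose by 3.26 ± 0.18.

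Other probes of the members gave a check of the chosen ones. A total of 26 members had a single probe, and 32 further kept probes belonged to the rest. Those 32 had the sign of the chosen probe in 21, 25 and 27 cases in the 3 genotype comparisons (resting, stimulated, Treg), in 31 and 32 for stimulation in WT and CKO, and in 18 and 20 for Treg against naive cells. The 24 resting, 16 stimulated and 4 Treg genotype calls included 5, 2 and 0 members called in all 20 alternatives, namely Bysl, Tsr1, Nhp2, Rrs1 and Srm at rest and Wdr12 and Gnl3 after stimulation. For stimulation 48 of 49 calls held in each genotype, and for Treg against naive cells 15 of 31 in WT and 8 of 17 in CKO.

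**Figure D5:**
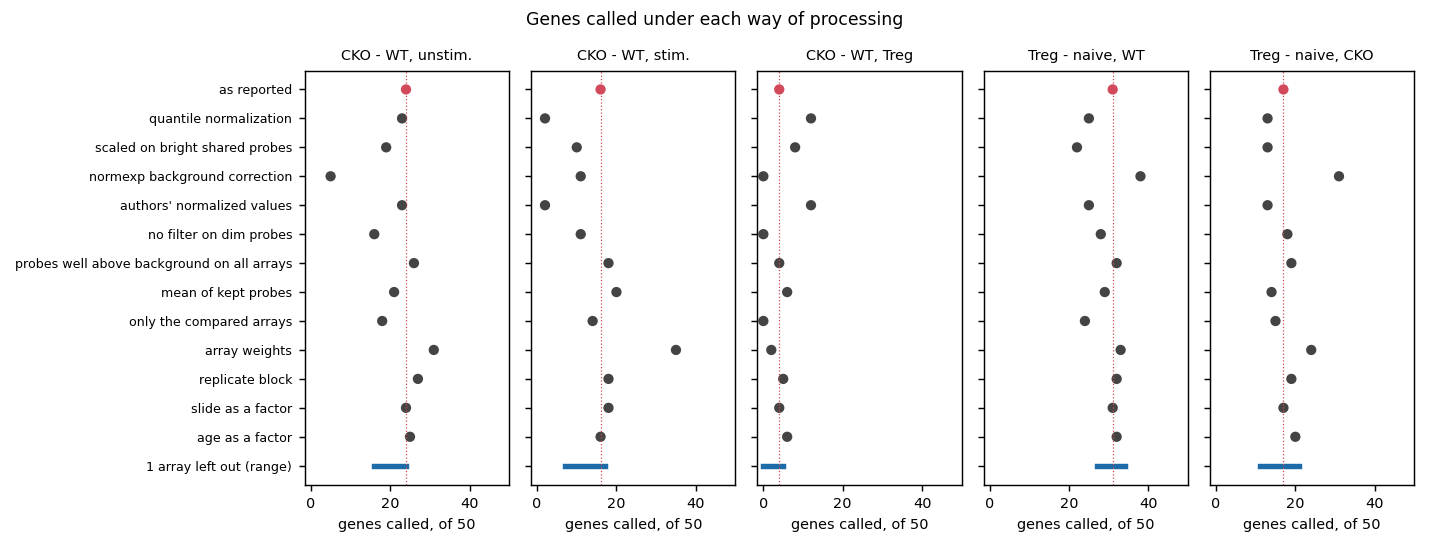
Number of the 50 genes called (horizontal axis) in the genotype and Treg comparisons under each way of processing (vertical axis), with the reported count in red and the range over left-out arrays as a blue bar. The genotype counts range from 5 to 31 at rest, from 2 to 35 after stimulation and from 0 to 12 in Treg.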

How the data were processed

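RNA of 24 samples was hybridised to single-colour Agilent mouse arrays, 4 to each of 6 slides, all scanned on 1 day. The authors deposited scanner output of Feature Extraction 9.5, per the submitters' processing notes and the file headers, whose intensity values are background-corrected processed signals on a linear scale. The authors also deposited a table of normalized intensity with the same distribution in every column, used here as an alternative. Signals were taken as log2 minus each array's 75th percentile. A probe was kept when well above background on at least 3 of 4 arrays of a group (25198 of 41174), and a gene was read from its brightest kept probe. Probes were named through RefSeq by accession or symbol, with the file's own name kept for 8440. One limma model (limma 3.58.1, R 4.3.3) with 6 group means and 18 residual degrees of freedom gave 9 contrasts, with Benjamini-Hochberg adjustment over 16484 genes. It was tested on simulated data. The number of arrays limits the precision.

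Values of every array were given for the polymerase I subunits, for the 4 called members of largest difference in each contrast, for the member of largest and of smallest rise in WT of each class, and for members called by an interaction. Of other lists at most 3 called genes of largest difference were named, and 1 of these is not reported here. The members and lists were chosen with earlier results of these data known. Same-numbered replicates deviated together over genes in every pair (correlations 0.44 to 0.57) only for Treg against naive CKO cells, and in no other contrast did all 4 pairs exceed 0.1. For the Treg genotype comparison, both stimulation comparisons and WT Treg against naive cells, 3 of 4 pairs did. Between genotypes 2 pairs did in stimulated and 0 in unstimulated naive cells. The alternatives were quantile normalization, scaling on 10264 bright shared probes, normexp background correction with an offset of 50, the authors' values, 2 other probe filters, the mean of kept probes, fits on the compared arrays alone, array weights, blocks for replicate number, slide and age, and leaving out each array. Figures were drawn with matplotlib 3.10.9.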

Additional observations from a re-analysis of the deposited data

Results flagged for a closer look

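Within groups of 4 arrays, 1 array stood far from the other 3 in 9 of the 144 member groups and 42 class-median groups examined, where chance alone marks about 1 in 20 groups. For 4 of these 9 it was replicate 4 of the WT unstimulated group. Ddx10 stood at 1.92 on that array against 0.78 to 0.86 on the others, Rrp12 at 1.00 against -0.28 to -0.10, and Gar1 at -1.08 against -0.10 to 0.06. The small subunit class median was 0.30 on it and -0.08 on each of the other 3. Without that array 22 members fell and 2, Ddx10 and Nat10, rose in resting CKO cells, and Noc2l, Pes1, Pwp2 and Wdr3 lost their call.

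The other 5 were single values. Ddx10 was 1.83 in CKO unstimulated replicate 3 against 1.67 to 1.69, and Utp20 was 1.14 on the same array against 1.03 to 1.04, both within narrow groups. Nolc1 was 3.21 in CKO unstimulated replicate 1 against 2.73 to 2.79. Nop16 was 0.047 in CKO unstimulated replicate 4 against -0.49 to -0.44. Wdr12 was 0.64 in WT Treg replicate 1 against 0.09 to 0.14.

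A difference between genotypes that itself differed with stimulation was found by the limma interaction for 6 genes of the other lists and markers examined, and for 0 of the 50 members. Taf1c, a subunit of the polymerase I selectivity factor SL1, had an interaction of 2.10 (adjusted p = 0.000325). Its levels were 1.40, 1.52, 1.50 and 0.90 in unstimulated WT and 0.62, 0.72, 0.67 and 1.13 in unstimulated CKO cells. After stimulation they were 0.86, 1.66, 1.81 and 1.52 in WT and 3.06, 2.94, 3.45 and 2.61 in CKO cells, without overlap. Mxd4 had an interaction of 1.29 (adjusted p = 0.00183), with stimulated levels of -1.26 to -0.66 in WT and -0.08 to 0.64 in CKO cells. Smox had 1.13 (adjusted p = 0.0104), with stimulated levels of 0.45 to 1.12 in WT and 1.74 to 2.23 in CKO cells. Trim28 itself had -1.17 (adjusted p = 0.00797), Foxp3 1.50 (adjusted p = 0.00444) and Il2ra -1.10 (adjusted p = 0.00815). Il2ra also had an interaction of genotype and cell type of -1.21 (adjusted p = 0.0108).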

How the results depend on the processing

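Both stimulation counts kept their size in every alternative (48 to 50), and no member changed sign there. The 24 resting genotype calls became 5 with normexp and ranged from 16 to 24 when 1 array was left out. The 16 in stimulated cells became 2 with quantile normalization, 2 with the authors' values, 10 when scaled on bright shared probes and 35 with array weights, and ranged from 7 to 17 with 1 array left out. The 4 in Treg became 12 with quantile normalization, 12 with the authors' values, 8 when scaled on bright probes, 2 with array weights, and 0 with normexp, with no filter on dim probes or when only the compared arrays were fitted, and ranged from 0 to 5 with 1 array left out. Treg against naive cells ranged from 27 to 34 in WT with 1 array left out, and in CKO the 17 became 31 with normexp and ranged from 11 to 21. Calls over all genes moved too. With normexp the genotype calls went from 3095 to 410 at rest and from 723 to 82 in Treg. Those of CKO Treg against naive cells went from 4647 to 8946 with normexp. With array weights the genotype calls in stimulated cells went from 3990 to 7456. The interaction with stimulation called 4 members with array weights and 1 each with quantile normalization, the authors' values, bright-probe scaling, the mean of kept probes and probes well above background on all arrays, and 0 to 1 with 1 array left out. The interaction with cell type called 3 with array weights and 0 with any array left out. With the replicate block the counts were 27, 18 and 5 between genotypes, 50 and 49 for stimulation in WT and CKO, 32 and 19 for Treg against naive cells in WT and CKO, and 0 for both interactions. By the check all 4 pairs deviated together only for CKO Treg against naive cells, and in other comparisons up to 3 of 4 did. The replicate block changed no count by over 1.5 times.

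The mean of kept probes turned the sign of Polr1b (0.42) and Polr3b (0.13) in resting CKO cells, of Polr1b (0.70, adjusted p = 0.0159), Heatr1 (0.068), Utp20 (0.24), Utp18 (0.10), Rrp15 (0.13) and Nsa2 (0.017) in WT Treg against naive cells, and of Utp20 (0.13) in CKO Treg against naive cells. With normexp Myc turned to -0.22 in WT Treg against naive cells. The cause of these shifts was not tested. Over all genes, the share of calls that were higher was 41.3% at rest (56.4% scaled on bright probes), 48.3% after stimulation between genotypes (60.8% with quantile normalization, 61.0% with the authors' values, 68.6% on bright probes, 28.6% with normexp) and 58.4% in Treg (47.5% with quantile normalization, 47.8% with the authors' values, 87.8% with normexp). For Treg against naive cells it was 38.7% in WT (58.3% on bright probes, 54.5% with normexp) and 41.5% in CKO (55.1% on bright probes, 56.1% with normexp, 76.4% with no filter). Bright-probe scaling moved the median of all genes on stimulation to -0.23 in both genotypes. Signal over background limits the dim probes: the Imp4 probe was well above background on 2 of 4 CKO unstimulated and 2 of 4 CKO Treg arrays.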
